A study of Bos taurus with 14 samples.

Results

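The 6 genes described here are ND1, ND2, ND3, ND4L, ND4 and ND5, 6 of the subunits of respiratory complex I that are encoded in mitochondrial DNA. They were chosen from 36075 gene identifiers in the deposited tables by a rule that used neither their level nor any difference between cows. The choice was not blind, since lower values of mitochondrial genes in A2A2 cows were already known from these data. The rule took identifier numbers from 43540 to 43590, a range of 45 identifiers, and kept those with the length of one of these genes. Length was the ratio of count to FPKM, set so that COX1 is 1545 bases long. The deposited tables hold no gene names, so each name rests on this length: 956 bases for ND1 (ENSBTAG00000043558), 1042 for ND2 (ENSBTAG00000043571), 346 for ND3 (ENSBTAG00000043568), 297 for ND4L (ENSBTAG00000043559), 1378 for ND4 (ENSBTAG00000043577) and 1821 for ND5 (ENSBTAG00000043563). The names were checked against the RefSeq gene table of the assembly ARS-UCD2.0. Each of the 15 mitochondrial genes for proteins and rRNAs in it had exactly 1 identifier of their length in the range, and no length was shared.

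RNA was sequenced from milk fat globules of 14 purebred Holstein cows of a commercial farm, 7 homozygous for the A1 form of β-casein (A1A1) and 7 homozygous for the A2 form (A2A2). Milk fat globules are droplets shed by the secretory cells of the udder, which carry some cytoplasm and RNA of those cells. Rations and management were common to all cows, and the labels give no treatment, age or stage of lactation. The β-casein genotype is natural variation in a nuclear gene, and cows of the 2 genotypes can differ elsewhere in their genomes. Each cow gave 1 library, named below by genotype and sample number. Library totals ran from 16116849 to 22994197 counts. The level of a transcript is given as CPM (counts scaled to a common library total, with TMM factors) between cows, and as the deposited FPKM, which is per length, between genes. Without gene names, markers of secretory cells or of milk leucocytes were not analysed here. In such bulk RNA, fewer cells or globules of a kind and less mitochondrial RNA in each cannot be told apart.

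Complex I, or NADH:ubiquinone oxidoreductase, takes electrons from NADH into the respiratory chain and pumps protons across the inner mitochondrial membrane. Most of its subunits come from nuclear genes, and the mitochondrial genome supplies the core of the membrane arm. ND2, ND4 and ND5 are related antiporter-like subunits of the proton pumping arm, while ND1, ND3 and ND4L lie towards the junction with the peripheral arm, where quinone binds. All 6 genes are read from the same strand, as parts of long transcripts that are cut into mature RNAs, mostly at the tRNAs between the genes. Among the 6, ND4L and ND4 are the exception, since they overlap and share 1 mature RNA. ND5 overlaps the end of ND6, which lies on the opposite strand. Reads over such overlaps can be split or dropped by counting, and whether the counting used strand is not given in the sources used here, so the levels of ND4L, ND4 and ND5 are uncertain to that extent.

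All 6 genes had lower values in the milk fat globules of A2A2 cows than in those of A1A1 cows, with log2 fold changes between -1.56 for ND2 and -1.04 for ND3. None passed an adjusted p of 0.05 over the 12320 genes tested by edgeR's quasi-likelihood test, in which 0 of 12320 genes (0%) were called. At an unadjusted p under 0.05, 6 of the 6 were lower in A2A2, against 265 of all genes tested (2.15%). The unadjusted p was smallest for ND1 (0.00183) and largest for ND4L (0.0115). Their median log2 fold change was -1.29, and that of all tested genes was -0.0042. The 6 genes come from the same precursor transcripts and vary together between cows, as given below, so they are not 6 separate observations of the genotype. Lower values of mitochondrial genes as a whole were already known in these data when the genes were chosen.

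ND1, a subunit next to the quinone site, had a CPM of 12327 at the lowest, 17275 at the median and 42401 at the highest in A1A1. In A2A2 the lowest was 3826, the median 7558 and the highest 13669. The groups overlapped only narrowly: 6 of 7 A2A2 cows lay below the lowest A1A1 cow, A1A1 3. The log2 fold change was -1.28 ± 0.34 (standard error; 95% interval -2.01 to -0.55), which is 2.43-fold lower, with an adjusted p of 0.856 in edgeR.

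ND3 is a small subunit with a loop near the quinone site. Its CPM ran from 5066 to 16356 in A1A1 with a median of 9981, and from 2091 to 7820 in A2A2 with a median of 4790. A2A2 values lay below every A1A1 cow in 5 of 7 cows, the other two being A2A2 11 and A2A2 13. ND3 had the smallest fold change of the 6, -1.04 ± 0.32 (95% interval -1.71 to -0.36, edgeR adjusted p = 0.856).

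ND4L, the shortest of the 6 and the partner of ND4 on one RNA, had by far the fewest counts, from 920 in A2A2 17 to 13627 in A1A1 9. Its CPM was 177 to 813 in A1A1 with a median of 418, and 50.6 to 357 in A2A2 with a median of 144. The groups overlapped more than for ND1, with 4 of 7 A2A2 cows below the lowest A1A1 cow. The log2 fold change was -1.25 ± 0.44 (95% interval -2.17 to -0.32, edgeR adjusted p = 0.856).

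Among the antiporter-like subunits, ND2 had the largest fold change and also the widest spread. In A1A1 its CPM was 2121 in A1A1 3 and 2173 in A1A1 7, the median was 6700 and the highest was 20454 in A1A1 9. A2A2 cows ran from 682 to 5114 with a median of 2801. A1A1 3 and A1A1 7 thus lay below the A2A2 median, and 3 of 7 A2A2 cows lay below the lowest A1A1 cow. The log2 fold change of ND2 was -1.56 ± 0.51 (95% interval -2.63 to -0.49, edgeR adjusted p = 0.856).

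ND4 had a CPM of 5954 to 29381 in A1A1 with a median of 11437, and 2023 to 9563 in A2A2 with a median of 5090. In 4 of 7 A2A2 cows it was below the lowest A1A1 cow. Its log2 fold change was -1.30 ± 0.39 (95% interval -2.13 to -0.47, edgeR adjusted p = 0.856). ND5, which forms the far end of the membrane arm, had 2059 to 13053 in A1A1 with a median of 5711, and 999 to 3887 in A2A2 with a median of 2126. Here 3 of 7 A2A2 cows lay below the lowest A1A1 cow. The log2 fold change of ND5 was -1.38 ± 0.41 (95% interval -2.26 to -0.50, edgeR adjusted p = 0.856).

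**Figure D1:**
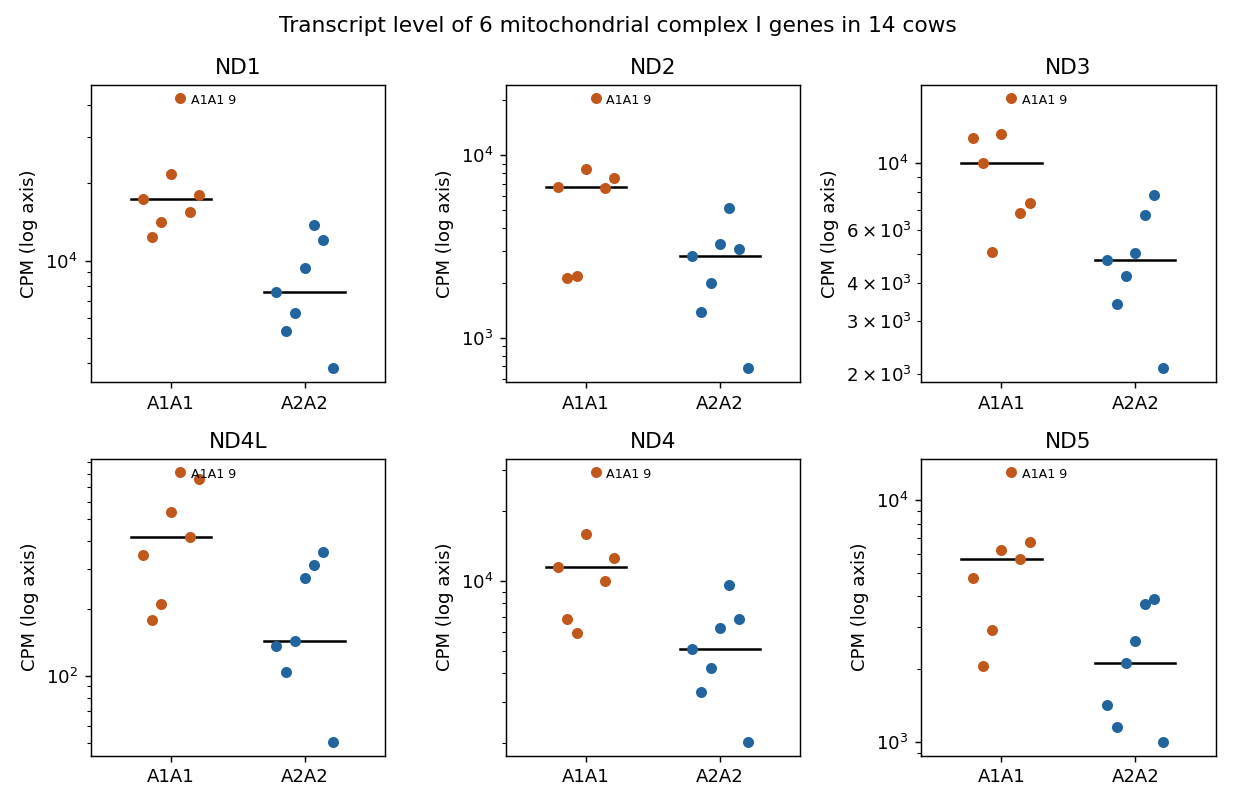
CPM (log axis) of each of the 6 genes in 7 A1A1 and 7 A2A2 cows, with 1 point per cow and a bar at the group median. The A2A2 median is below the A1A1 median in every panel, the groups overlap in all of them, and A1A1 9 is the highest cow throughout.

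For none of the 6 genes were the groups without overlap, a pattern that 4 of 12320 tested genes (0.0325%) showed in the direction of lower A2A2 values. All 7 A2A2 cows lay below the A1A1 median for each of the 6 genes. How many of all tested genes show this weaker pattern was not counted, so it is given as description only. A1A1 9 was the highest of all cows for every one of the 6 genes. Without it, the mean ND1 level in A1A1 was 16455 ± 3276 CPM in place of 20161 ± 10252, against 8293 ± 3591 in A2A2 (SD; n = 7, or 6 without A1A1 9). The log2 fold changes without A1A1 9 ran from -1.09 for ND2 to -0.88 for ND3. In that fit 6 of 6 genes still had an unadjusted p under 0.05 in edgeR, with p between 0.00339 and 0.0291. Of all genes tested there, 164 of 12473 (1.31%) were lower at that p. The edgeR adjusted p of each of the 6 was 0.9999.

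Together the 6 genes held 2.13 to 11.1% of a library's counts in A1A1, with a median of 4.99%, and 1.01 to 4.26% in A2A2, with a median of 2.15%. The highest share was 11.1% in A1A1 9 (exact Clopper-Pearson 95% interval 11.08 to 11.11%) and the lowest 1.01% in A2A2 17 (1.00 to 1.01%). The intervals cover counting error only. Group means were 5.47 ± 2.94% and 2.54 ± 1.17% (SD, n = 7 each), a difference of -2.93 points, or -1.99 points without A1A1 9. Within mitochondrial RNA the complex I genes took a like share in both groups. They made up 19.9 ± 2.02% of the counts of all 15 mitochondrial protein and rRNA genes in A1A1 and 20.6 ± 1.27% in A2A2, and the ranges overlapped.

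The descriptions of 4 libraries, 2 per genotype, end in _2, a suffix that the labels do not explain. Among the 10 libraries without it, the differences in mean log2 CPM were alike in the 6 genes, from -1.44 for ND5 to -1.31 for ND4L. Among the 4 libraries with it they were -1.50 for ND2, -1.31 for ND4L, -1.11 for ND5, -1.06 for ND4, -0.94 for ND1 and -0.30 for ND3, with no test on 2 cows against 2. ND3 had a mean of 7105 CPM in the A1A1 cows with the suffix and 11188 in those without it. Its difference over all cows was -1.05 on this scale. In edgeR the log2 fold change of ND3 was -1.03 with a covariate for the suffix and -1.34 in the 10 libraries without it, against -1.04 in the main fit. Whether the difference of ND3 depends on the suffix was not tested.

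Per length, the 6 genes kept nearly the same order in every cow. ND3 was highest with a median of 19678 FPKM over 14 cows, followed by ND1 with 13404, ND4 with 4914, ND2 with 3050, ND5 with 1803 and ND4L with 979. In 13 of 14 cows all 6 genes stood in exactly this order. The exception was A1A1 7, where ND1 and ND3 changed places at a ratio of ND3 to ND1 of 0.994. ND3 exceeded ND1 by a median of 1.55-fold, with a range over cows of 0.994 to 2.24. The other steps held in 14 of 14 cows: ND1 over ND4 by a median of 2.16-fold, ND4 over ND2 by 1.44-fold, ND2 over ND5 by 2.06-fold and ND5 over ND4L by 1.92-fold. The narrowest of these was 1.09-fold, for ND4 over ND2.

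**Figure D2:**
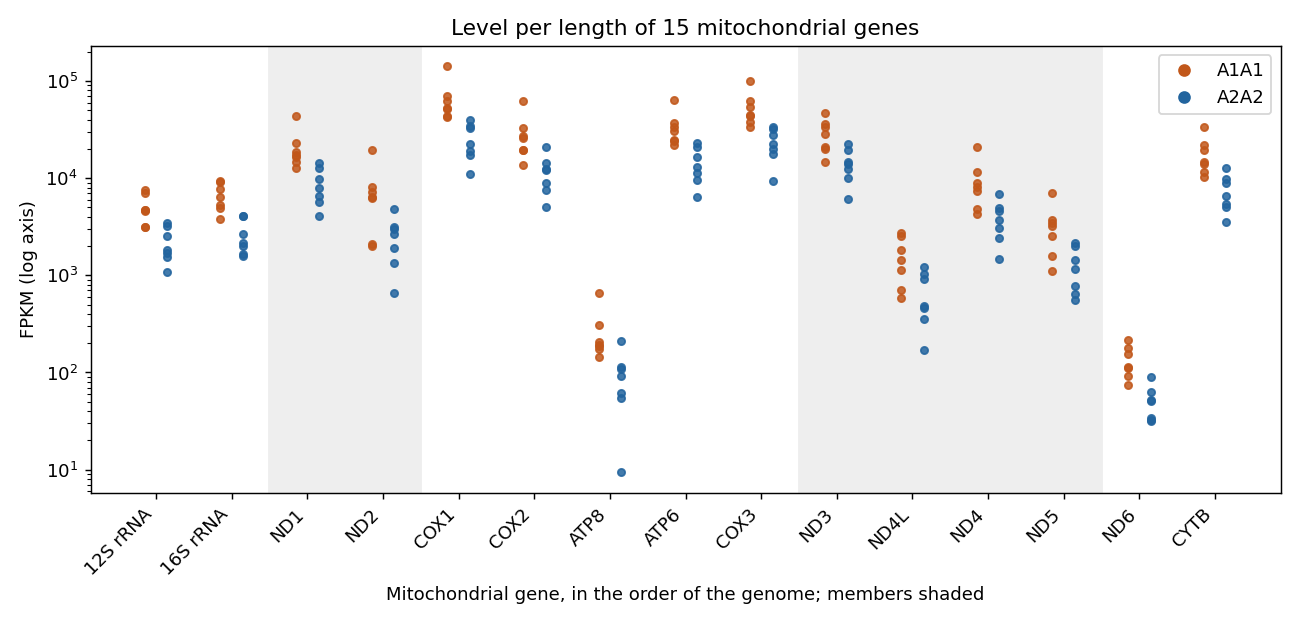
Deposited FPKM (log axis) of 15 mitochondrial genes in the order of the mitochondrial genome, with 1 point per cow for A1A1 and A2A2 and the 6 complex I genes shaded. By median FPKM, ND3 and ND1 lie below COX1 and COX3, ND3 between ATP6 and COX2 and ND1 between COX2 and CYTB. ND2, ND5 and ND4L lie lower. A2A2 points tend to sit lower than A1A1 points, with overlap in each of the 6 complex I genes.

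Set against COX1, a subunit of cytochrome c oxidase and the most abundant gene of all in these libraries, ND3 reached a median of 53.03% per length, ND1 32.4%, ND4 14.3%, ND2 10.5%, ND5 4.92% and ND4L 2.28%. ND3 was thus the fourth and ND1 the sixth of the 15 mitochondrial genes by median FPKM, and ND4L the 13th. The order does not follow the place along the genome, since ND2 follows ND1 and stood well below it, and ND4L precedes ND4. ND4L and ND4 share an RNA, yet ND4L had a median of 0.154 of the level of ND4 per length, with a range of 0.116 to 0.282 over cows. ATP8 and ATP6, which also overlap and share an RNA, had medians of 0.353% and 52.6% of COX1, so that there too the shorter gene was the lower. Whether counting over the overlaps or the shortness of ND4L and ATP8 has a part in these ratios was not tested.

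Ratios between the genes within a library do not depend on how libraries are scaled. Over 14 cows the log2 ratio of ND1 to ND4 had the smallest SD of the 15 pairs, 0.21, and that of ND2 to ND3 the largest, 0.69. Against COX1, the SD was 0.15 for ND1 and 0.54 for ND2. For comparison, the log2 CPM of ND1 alone had an SD of 0.59 in A1A1 and 0.65 in A2A2, and that of ND2 had 1.15 and 0.95. Counting error was at most 0.049 on the log2 scale in any ratio and library. With 1 library per cow, differences between cows and between library preparations cannot be told apart in this spread.

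ND2 varied most between cows relative to COX1, and it was lowest in A1A1 3, A1A1 7 and A2A2 17. These cows were picked after seeing the values. In them ND2 was at 4.54, 4.84 and 5.94% of COX1 per length, against 7.74 to 14.04% in the other 11 cows. By Dixon's test within each genotype, given below, no cow was set apart in any ratio. The same 3 cows had the lowest ND4, at 11.05, 10.02 and 13.3% of COX1, and the lowest ND4L, at 1.33, 1.63 and 1.55%. For ND1 they were not the 3 lowest, with 28.7, 34.2 and 36.3% in a range over all cows of 28.7 to 41.3%. A1A1 3 also had the lowest ND5 at 2.52%, but its ND3, at 64.3%, was among the 4 highest. Of these libraries, A1A1 3 had the lowest TMM factor of all (0.636), and A1A1 7 had the fewest counts. Whether these have a part in the ratios was not tested.

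**Figure D3:**
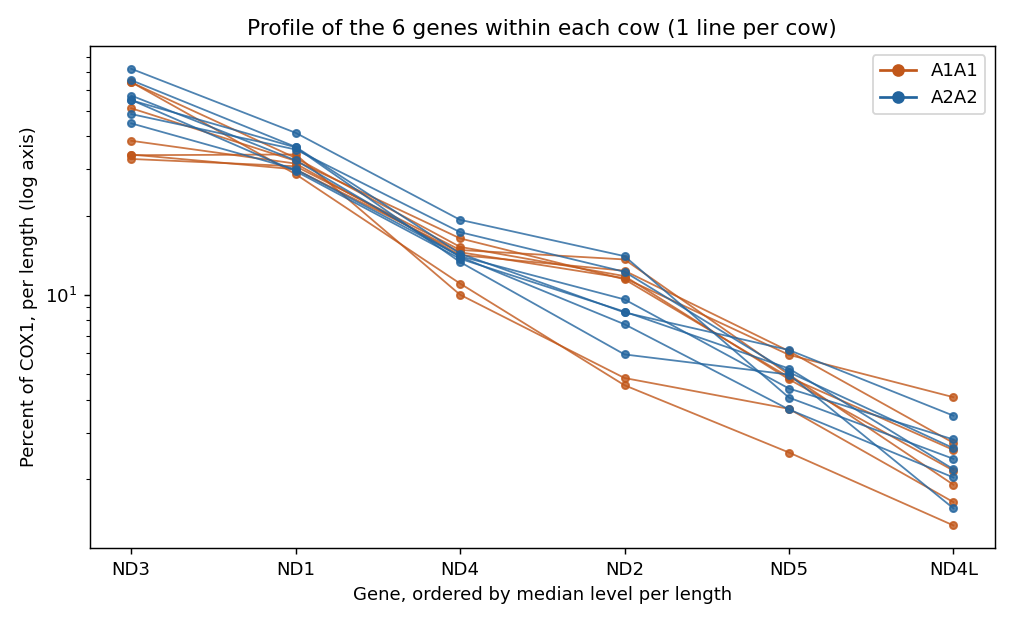
Level per length of the 6 genes as a percent of COX1 (log axis), with 1 line per cow. The lines fall from ND3 to ND4L in the same order in 13 of 14 cows. A1A1 and A2A2 lines are interleaved, and the lines spread most at ND2 and ND4L.

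No difference between the genotypes in the balance of the 6 genes was detected. For 15 pairs of the genes and for each gene against COX1, the mean log2 ratio per length was compared by an exact permutation test over all 3432 splits of 14 cows into 7 and 7, two-sided. None of these 21 ratios had an unadjusted p under 0.05, and the smallest Benjamini-Hochberg adjusted p was 0.974 (exact permutation tests). The smallest unadjusted p was that of ND3 to COX1. This ratio was 0.36 higher in A2A2 on the log2 scale (95% interval -0.05 to 0.77, exact permutation p = 0.0810, adjusted p = 0.974), and 7 of 7 A2A2 cows were above the A1A1 median. The 7 A2A2 cows also lay all on one side of that median for ND1 to ND2, ND3 to ND5, ND1 to ND3 and ND2 to ND4. Those ratios had exact permutation p from 0.218 to 0.666. The difference of ND3 to COX1 was 0.73 among the libraries with the suffix and 0.21 among the others.

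ND1 to COX1 gave the narrowest interval, with a difference of 0.12 (95% interval -0.03 to 0.28, exact permutation p = 0.112, adjusted p = 0.974). ND1 to ND4 differed by -0.02 (-0.29 to 0.22), and ND4L to ND4, which share an RNA, by -0.05 (-0.50 to 0.41). The widest interval was that of ND2 to ND3, with a difference of -0.37 (-1.14 to 0.44).

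**Figure D4:**
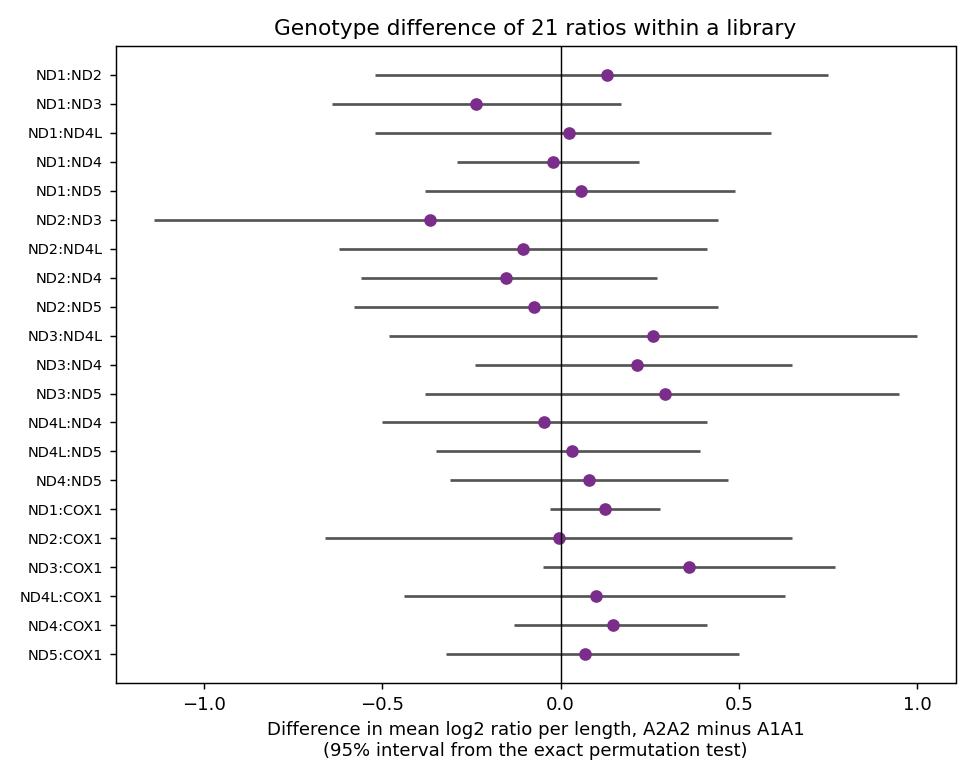
Difference in the mean log2 ratio per length between A2A2 and A1A1 for 21 ratios, as points with 95% intervals from the exact permutation test. All intervals include 0, the narrowest being that of ND1 to COX1 and the widest that of ND2 to ND3.

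The other 9 mitochondrial genes for proteins and rRNAs were also lower in A2A2, 9 of 9 at an unadjusted p under 0.05 and 0 of 9 at an adjusted p of 0.05 in edgeR. Their log2 fold changes ran from -1.54 for ATP8 to -1.20 for the 12S rRNA, with a median of -1.32, against -1.29 for the complex I genes. DESeq2 called 7 of these 9 genes at an adjusted p of 0.05 but 0 of the 6 complex I genes, among 12 genes called in all (0.0974%). The smallest DESeq2 adjusted p of a complex I gene was 0.0566, for ND1. This is no test of a difference between the lists. The ratios given above compare the 6 genes with COX1 alone, and ratios to the rest of the list were not tested. Values of the nuclear subunits of complex I were not analysed here, since the identifiers are not paired with names.

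**Figure D5:**
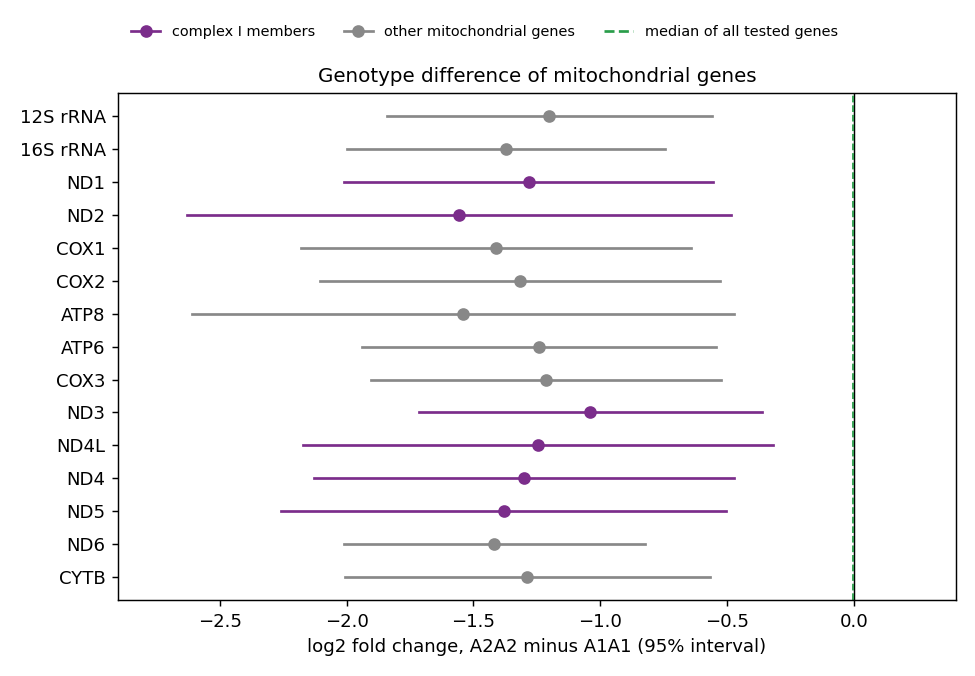
log2 fold change (A2A2 minus A1A1, edgeR) of 15 mitochondrial genes in genome order, with unadjusted 95% intervals. The 6 complex I genes lie between -1.56 and -1.04 and their intervals overlap those of the other 9 genes, while the median of all tested genes is near 0.

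Across the 14 cows, the genes whose log2 CPM was most like that of the 6 genes summed were COX2, ATP6, COX1, CYTB and COX3, in this order, out of 12314 genes compared. Pearson's r was between 0.971 and 0.989 and Spearman's rho between 0.930 and 0.974. Without A1A1 9 and A2A2 17, the cows farthest from the median, r was 0.935 to 0.974, and with each genotype centred on its own mean it was 0.943 to 0.978. ND6, the complex I subunit encoded on the opposite strand, ranked 20th with r = 0.849, and 0.664 with genotypes centred. Of the same genome, the 12S rRNA ranked 9th (r = 0.883, or 0.750 with genotypes centred). The 16S rRNA ranked 34th (0.830, or 0.616) and ATP8 138th (0.769, or 0.574), both below ND6. Among the genes outside the identifier range with a mean of at least 10 CPM, none reached an r of 0.9. The most alike were ENSBTAG00000007993 (r = 0.898, or 0.786 without those 2 cows) and ENSBTAG00000012779 (0.877, or 0.681), and the most opposed were ENSBTAG00000009209 (-0.871, or -0.750) and ENSBTAG00000027442 (-0.869, or -0.668). These correlations describe 14 libraries that share 1 scaling, and genes with many counts take counts from all others.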

How the data were processed

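Total RNA was taken from frozen milk and paired-end sequencing libraries were built from its mRNA, per the labels' protocols. For each of 14 cows the authors deposited raw counts and FPKM values per gene. The submitters' processing notes list edgeR 4.0.16, STAR, cutadapt 4.0 and FastQC 0.11.9 without their roles, and the counting tool, strand setting, annotation and build are not given in the sources used. Genotype and number came from the sample titles. The labels state no pairing. Members, lists and tests were chosen with earlier results of these data known.

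The counts of all genes went through edgeR 4.0.16 in R 4.3.3, with filterByExpr, TMM and the robust quasi-likelihood test of A2A2 against A1A1 (two-sided, Benjamini-Hochberg, threshold 0.05). Standard errors follow from the F statistic. log2 CPM used a pseudocount of 0.5. Ratios used the deposited FPKM values and exact permutation tests, whose inversion gave the 95% intervals. Described in full were the 6 genes, the other genes of the mitochondrial genome as a list, and the most like and most opposed genes by correlation. The scripts were tested on simulated data. Alternatives were RLE factors, library totals, scaling without the mitochondrial identifiers, testing unfiltered genes or those reaching a CPM of 1 in 7 libraries, leaving out each library, a covariate for the suffix, only the 10 libraries that lack it, DESeq2 1.42.0, limma 3.58.1 (voom with quality weights, and log2(FPKM + 1) or log2(FPKM + 0.1) for genes reaching an FPKM of 1 in 7 libraries) and medians. Leaving out A1A1 3 and A1A1 9 together was chosen after seeing the data.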

Additional observations from a re-analysis of the deposited data

Results flagged for a closer look

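Within each genotype, the levels, shares and ratios of the 6 genes gave 56 sets of 7 values, and 4 of them had a cow far from the other 6 by Dixon's test. Chance gives about 1 in 20 sets for normally distributed values, the sets overlap, and CPM was searched without a log scale. All 4 concern A1A1 9. Its ND1 level was 42401 CPM, next to 21674 in the nearest and 12327 in the lowest A1A1 cow. Its ND2 level was 20454 CPM, with the nearest at 8383, and its ND4 level was 29381 CPM, with the nearest at 15860. Its ND5 level was 13053 CPM, with the nearest at 6735. ND3 and ND4L were not set apart in A1A1 9, nor was any of the 21 ratios in any cow.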

How the results depend on the processing

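Under all 26 alternatives, 0 of the 6 genes were called and 6 of 6 were lower with an unadjusted p under 0.05. Of all genes tested, 0.649% (library totals) to 8.09% (without A2A2 11) were lower at that unadjusted p. DESeq2 called 12 of 12320 genes and limma with log2(FPKM + 1) called 1 of 9848, while the other alternatives called none. The median log2 fold change of the 6 was -1.48 to -1.02, lowest without A2A2 11 and highest without A1A1 9. Single values ran from -1.81 for ND2 without A2A2 11 to -0.84 for ND3 with library totals, which moved the median of all tested genes to 0.18. Scaling without the mitochondrial identifiers gave a median of -1.33, and leaving out A1A1 3 and A1A1 9 together gave -1.15. The smallest adjusted p of any of the 6 under any alternative was 0.0566 (DESeq2, ND1). The difference in their share of counts was -3.49 to -1.99 points when leaving out 1 library. None of the 21 ratios was called under 16 alternatives, with a smallest adjusted p of 0.235 without A1A1 3. Without that cow, 3 ratios had an unadjusted p under 0.05 in the exact permutation test: ND3 to COX1, ND3 to ND5 and ND1 to ND3. Leaving out A1A1 2, A2A2 5 or A2A2 6 gave 1 such ratio each, and the other alternatives gave none. No paired analysis was possible because the labels state no pairing of A1A1 with A2A2 cows. Depth limits ND4L most, with 920 counts in A2A2 17.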
